A study of Canis lupus familiaris with 22 samples.

Results

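Surface proteins of the urothelium that are pursued as targets of antibodies, antibody-drug conjugates or engineered T cells were followed in dog bladder tissue: PSCA, NECTIN4, EPCAM, FOLR1, MSLN, CD276, CD44, CD24 and PROM1. Members were the probe sets (sets of short oligonucleotides on the array that read 1 transcript) whose platform annotation gave one of these 9 symbols and no other gene. The rule found 10 of 42924 probe sets, and they stood for 6 of the 9 genes and for 6 of 15115 genes in all. EPCAM and CD44 had 3 probe sets each, and PSCA (CfaAffx.2797.1.S1_at), NECTIN4 (CfaAffx.19691.1.S1_at), CD276 (CfaAffx.27272.1.S1_s_at) and PROM1 (CfaAffx.23488.1.S1_s_at) had 1 each. FOLR1, MSLN and CD24 were named by 0 probe sets and were not analysed here.

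The study set 18 samples of invasive urothelial carcinoma (iUC) against 4 samples of normal bladder, each on 1 Affymetrix Canine 2.0 array. The iUC samples were naturally occurring, histologically high-grade tumours of pet dogs, taken fresh through a cystoscope before any therapy. The normal bladders came fresh from healthy, age-matched dogs without a tumour. Both groups were bulk tissue with no sorting of cells, so fewer cells of a type and less RNA per cell cannot be told apart. The deposited values are on a log2 scale and are centred on 0 at the median of the 22 arrays for each probe set. A value therefore gives a difference from that median and no level of expression, and values of different genes cannot be ranked against each other. A gene's value is the mean of its probe sets.

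The proteins belong to unrelated families. PSCA is a small glycolipid-anchored protein of the LY6 family, first described in prostate, that sits on the outer membrane of urothelial cells. Nectin-4, the product of NECTIN4, is an adhesion molecule of the immunoglobulin superfamily and the target of enfortumab vedotin, an antibody-drug conjugate used in human urothelial cancer. EpCAM is a homophilic adhesion molecule carried by most simple and many stratified epithelia. CD276 is an immunoglobulin superfamily ligand that modulates T cells and occurs on many tumours and on their stroma. CD44 is the main cell-surface receptor for hyaluronan, is spliced into many isoforms, and is carried by basal urothelium as well as by leukocytes and fibroblasts. PROM1 encodes prominin-1, a pentaspan protein of membrane protrusions that is widely used as a progenitor marker.

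The groups differed in tissue make-up, and the iUC arrays differed among themselves. The mean of 22 smooth muscle genes lay between -0.48 and 0.96 in iUC and between 2.19 and 3.72 in normal bladder. The mean of 18 measured urothelium marker genes lay between -1.03 and 0.62 in iUC and was -0.32, 0.15, -1.31 and -2.63 in normal bladder replicates 1 to 4. Centred values cannot show whether a marker was absent. Urothelium markers were thus lowest in normal replicates 3 and 4, whose arrays were also the most alike (r = 0.934 across probe sets, against at most 0.761 for other normal pairs). The Tag controls, probe sets that match no dog transcript, split the iUC arrays into a high set of 7 (means 0.28 to 0.46) and a low set of 11 (means -0.13 to 0.13). In the sample descriptions, the iUC samples and normal replicate 1 end with one code, and normal replicates 2 to 4 end with another.

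Of the 6 genes, 4 (PSCA, NECTIN4, EPCAM and PROM1) were higher in iUC than in normal bladder, where a gene was called if limma, fitted on all genes, gave at least a 2-fold change with an adjusted p no higher than 0.05. Over all genes, 3.68% were called higher and 8.64% lower. CD276 and CD44 were not called. No member gene was called lower by limma, and the count was also 0 at an unadjusted p of 0.05 or below and in the methods' t-test. The median log2 fold change was 2.11 over the 6 members and 0.08 over all genes. PSCA, PROM1 and NECTIN4 were among the 1% of genes with the largest rises. Of the 18 urothelium markers 8 were called higher in iUC and 1 lower. The study listed NECTIN4 and PROM1 among genes changed in iUC, and CD44 among basal genes, partly from these samples. It described the genes of the latter list as also changed in iUC against normal dog bladder, while CD44 was not called here. The directions of these genes here are therefore not independent evidence.

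**Figure D1:**
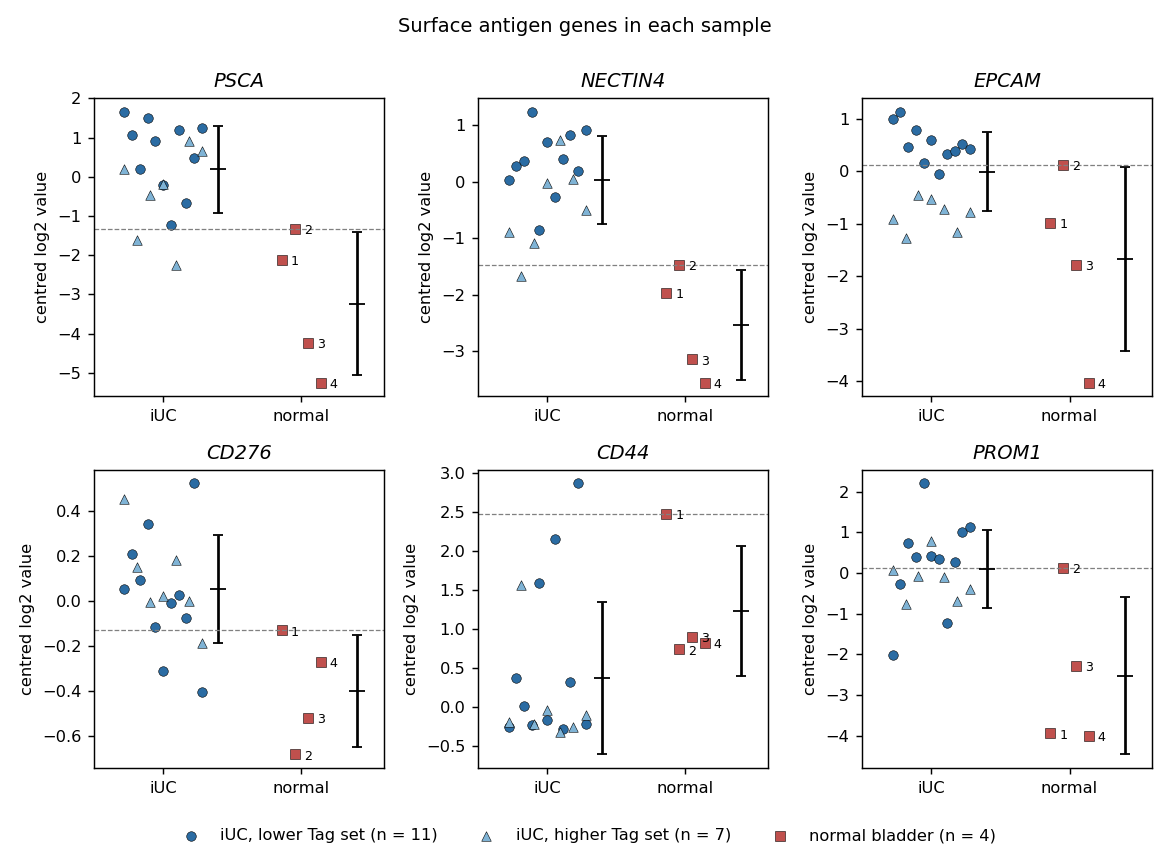
Centred log2 value of each surface antigen gene (y axis) in the 18 iUC samples on the left and the 4 normal bladder samples on the right of each panel. Bars give mean and SD, the dashed line is the highest normal sample, and colours mark the high and low Tag sets. PSCA exceeded the line in 16 of 18 iUC samples and NECTIN4 in 17 of 18, while CD44 exceeded it in 1.

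PSCA was the member with the largest change. It ranged in iUC from -2.24 in replicate 7 to 1.66 in replicate 1 with a median of 0.34, against -2.12, -1.33, -4.24 and -5.25 in normal bladder replicates 1 to 4. Thus 16 of 18 tumours lay above every normal sample, and iUC replicates 4 (-1.61) and 7 (-2.24) did not. Of all genes, 8.48% had at least as many tumours above every normal sample. PSCA averaged 0.19 ± 1.10 in iUC and -3.24 ± 1.82 in normal bladder (SD, n = 18 and 4), a log2 fold change of 3.42 (SE 0.65, adjusted p = 0.000455), or 10.7-fold. Only 5 genes had a larger rise. The call was lost when the code at the end of the sample description was a block (2.31, adjusted p = 0.58), a fit in which normal replicate 1 alone stands for normal bladder beside the tumours.

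NECTIN4 separated the groups most completely. It ranged in iUC from -1.67 in replicate 4 to 1.24 in replicate 9 with a median of 0.12, against -1.97, -1.47, -3.15 and -3.56 in normal bladder replicates 1 to 4. Here 17 of 18 tumours were above every normal sample, which 5.64% of genes matched or surpassed, and iUC replicate 4 was the exception. The means were 0.02 ± 0.78 in iUC and -2.54 ± 0.98 in normal bladder (SD, n = 18 and 4), a log2 fold change of 2.56 (SE 0.43, adjusted p = 0.000127), or 5.89-fold. The description code as a block again ended the call (1.99, adjusted p = 0.315).

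EPCAM was also higher in iUC, with wide overlap. It ranged in iUC from -1.28 in replicate 4 to 1.13 in replicate 2 with a median of 0.24, against -0.98, 0.12, -1.78 and -4.03 in normal bladder replicates 1 to 4. The spread within normal bladder was larger than that within the tumours, and 10 of 18 tumours exceeded every normal sample, against 30.4% of genes with that many or more. Without normal replicate 2 the count was 16 of 18. The log2 fold change was 1.66 (SE 0.51, adjusted p = 0.0167), or 3.16-fold. Its 3 probe sets each passed the call, with log2 fold changes of 1.41 (Cfa.12746.1.S1_at), 1.94 (CfaAffx.4844.1.S1_at) and 1.63 (CfaAffx.4844.1.S1_s_at), where 3.9% of all probe sets were called higher. The EPCAM call rested on single normal samples: it was lost without normal replicate 3 (1.62, adjusted p = 0.0571) and without normal replicate 4 (0.87, adjusted p = 0.168), the replicate with the weakest urothelium markers. It was also lost with replicates 3 and 4 as 1 sample (1.25, adjusted p = 0.0899), against the 7 iUC arrays of the high Tag set alone (0.83, adjusted p = 0.231), and with the description code as a block (0.98, adjusted p = 0.845).

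PROM1 combined a large mean difference with 1 normal bladder at tumour values. It ranged in iUC from -2.01 in replicate 1 to 2.20 in replicate 10 with a median of 0.17, against -3.94, 0.13, -2.28 and -4.00 in normal bladder replicates 1 to 4. Normal replicate 2 therefore lay close to the tumour median, and 9 of 18 tumours exceeded every normal sample, against 34.9% of genes with that many or more. Without normal replicate 2 the count was 18 of 18. PROM1 averaged 0.10 ± 0.95 in iUC and -2.52 ± 1.94 in normal bladder (SD, n = 18 and 4), a log2 fold change of 2.62 (SE 0.61, adjusted p = 0.00262), or 6.16-fold. After quantile normalization the adjusted p was 0.0522, at a log2 fold change of 1.83.

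CD276 differed little. It ranged in iUC from -0.40 in replicate 17 to 0.52 in replicate 16 with a median of 0.03, against -0.13, -0.68, -0.52 and -0.27 in normal bladder replicates 1 to 4. In all, 15 of 18 tumours were above every normal sample, against 11.4% of genes with that many or more. The log2 fold change of 0.45 (SE 0.13, adjusted p = 0.0129), or 1.37-fold, was below the 2-fold limit of the call. At any fold, 18.2% of genes were higher at that adjusted p threshold. The adjusted p passed 0.05 without normal replicate 2 (0.0738) or without normal replicate 3 (0.0603).

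**Figure D2:**
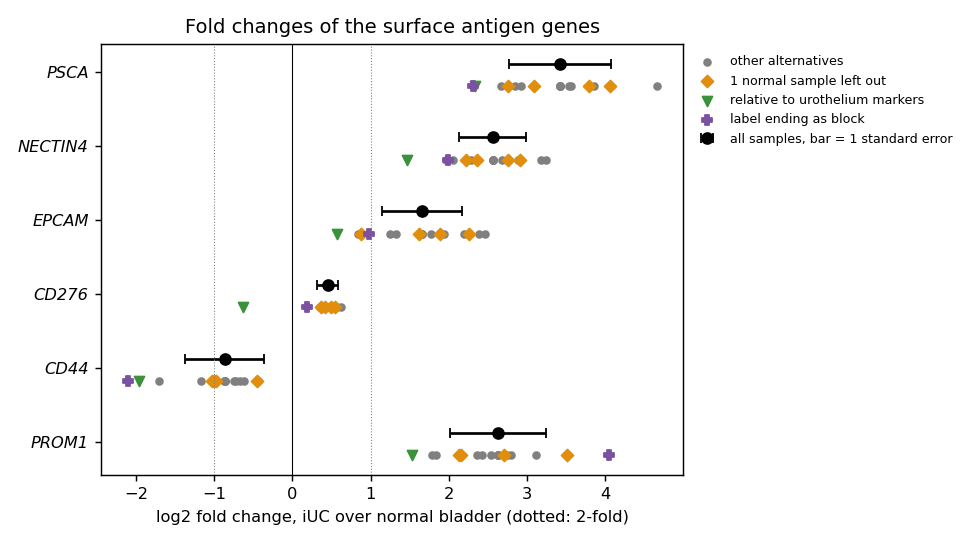
Log2 fold change of each surface antigen gene, iUC over normal bladder (x axis), with its standard error from all 22 samples in black and the value under each alternative setting in colour below it. PSCA, NECTIN4, EPCAM and PROM1 stayed above 0 in every setting plotted, CD44 stayed below 0, and CD276 lay at -0.64 relative to the urothelium markers, a shift of all genes alike that puts the median gene at -1.01.

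CD44 was split among the tumours. In 14 of 18 tumours it lay between -0.32 and 0.38, below every normal sample, against 13.2% of genes with that many or more below. The other 4 tumours had 1.56 (replicate 4), 1.59 (replicate 10), 2.15 (replicate 12) and 2.87 (replicate 16), within or above the normal bladder values of 2.47, 0.74, 0.90 and 0.82 in replicates 1 to 4. Only iUC replicate 16 exceeded every normal sample, where 72.1% of genes had 1 or more such tumours. The mean was 0.37 ± 0.97 in iUC and 1.23 ± 0.83 in normal bladder (SD, n = 18 and 4), a log2 fold change of -0.87 (SE 0.50, adjusted p = 0.172), so no difference was called. Without normal replicate 1, the highest normal sample, 4 tumours exceeded every normal sample and the log2 fold change was -0.45 (adjusted p = 0.518).

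The 3 CD44 probe sets ordered the tumours alike and placed normal bladder differently. Over the 18 tumours, after the mean of each Tag set was subtracted, their pairwise r was 0.964 to 0.989. Against normal bladder, Cfa.3800.1.S1_s_at had a log2 fold change of -0.04 (SE 0.41, adjusted p = 0.946), CfaAffx.11235.1.S1_s_at had -0.85 (SE 0.52, adjusted p = 0.194), and Cfa.3800.2.S1_at had -1.71 (SE 0.62, adjusted p = 0.0366). The last was the only member probe set called lower, where 10.7% of all probe sets were. Its values ran in iUC from -0.57 to 3.61 with a median of -0.15, against 3.23, 1.64, 2.19 and 1.68 in normal bladder replicates 1 to 4. On Cfa.3800.1.S1_s_at normal bladder replicates 2 to 4 were at -0.02, -0.34 and -0.04, beside a tumour median of 0.03, and replicate 1 was at 1.51. There 4 of 18 tumours lay below every normal sample and 2 above, against 14 below and 1 above on each of the other CD44 probe sets. The call on Cfa.3800.2.S1_at was lost when any 1 normal sample was left out (adjusted p between 0.054 and 0.123), at log2 fold changes of -1.36 without replicate 1, -1.89 without 2, -1.70 without 3 and -1.87 without 4.

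**Figure D3:**
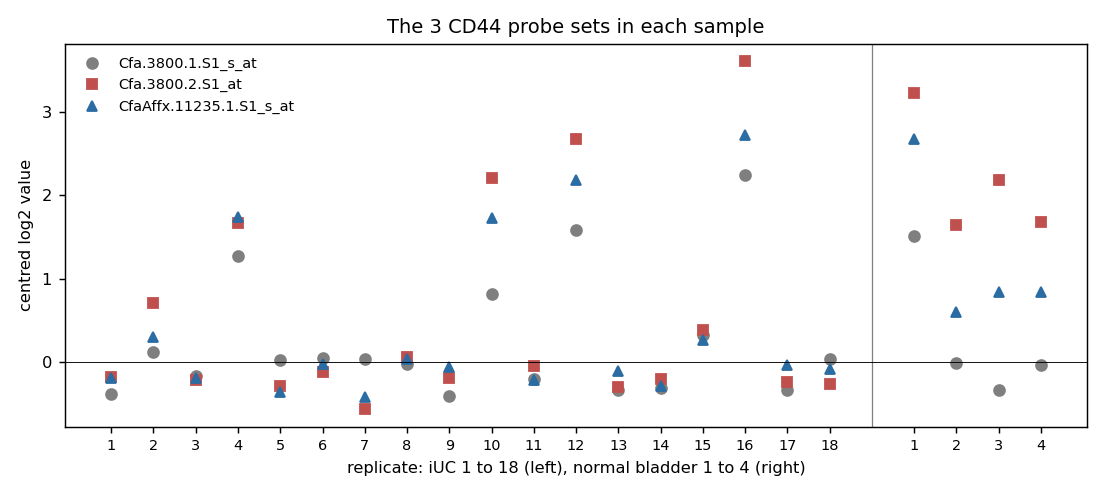
Centred log2 value (y axis) of the 3 CD44 probe sets in iUC replicates 1 to 18 (left) and normal bladder replicates 1 to 4 (right). The markers rise together in iUC replicates 4, 10, 12 and 16, while in normal bladder replicates 2 to 4 Cfa.3800.2.S1_at lies between 1.64 and 2.19 and Cfa.3800.1.S1_s_at between -0.34 and -0.02.

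The values above the normal range were also counted by tumour, for the antigens other than CD44. CD44, with 1 tumour above every normal sample and 14 below, was left out of these counts. The 5 genes counted all had a higher mean in iUC, so high counts by tumour are partly set by that choice. No share over all genes was counted by tumour. Among PSCA, NECTIN4, EPCAM, CD276 and PROM1, 5 tumours (iUC replicates 8, 9, 10, 15 and 16) had all 5 above every normal sample, 7 tumours had 4, 3 had 3, and 2 (replicates 7 and 18) had 2. A single tumour, iUC replicate 4, had 1, which was CD276. PSCA or NECTIN4 exceeded every normal sample in 17 tumours, and both did in 16. Replicate 4 had the lowest urothelium marker mean of the tumours (-1.03) and their highest leukocyte marker mean (0.75), and it was the lowest tumour for both NECTIN4 and EPCAM and one of the 4 with high CD44. The part of its tissue make-up in these values was not tested.

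The Tag sets moved with these counts. Of the 12 tumours with 4 or 5 of the antigens other than CD44 above the normal range, 11 were in the low set of 11 and 1 in the high set of 7. EPCAM had a median of -0.77 (-1.28 to -0.46) in the high set and 0.45 (-0.05 to 1.13) in the low set, with 0 of 7 and 10 of 11 tumours above every normal sample. How many of all genes part the sets in this way was not counted, so whether the split is particular to EPCAM is not known. PSCA had a median of -0.20 in the high set and 0.91 in the low set, with 5 of 7 and 11 of 11 above. NECTIN4 had -0.50 and 0.37, with 6 of 7 and 11 of 11 above. PROM1 had -0.09 and 0.39, with 1 of 7 and 8 of 11 above. CD276 had 0.02 in the high set and 0.03 in the low set, with 6 of 7 and 9 of 11 above. Other measures moved with the sets. The urothelium marker mean lay between -1.03 and 0.09 in the high set and between -0.17 and 0.62 in the low set, and the SD over an array's values lay between 0.547 and 0.797 in the high set and between 0.368 and 0.502 in the low set. The mean of 13 GAPDH and actin control probe sets lay between -1.21 and -0.63 in the high set and between -0.36 and 0.32 in the low set, without overlap. Their part in the antigen values was not tested.

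The antigens were next read against the mean of the urothelium markers. The log2 fold changes of these markers ran from -4.34 (KRT13) to 3.06 (CDH1), so their mean does not measure the amount of urothelium alone. In normal bladder PSCA, NECTIN4 and EPCAM followed the same order as the urothelium marker mean, replicates 2, 1, 3 and 4 from high to low. PROM1 ran in the order 2, 3, 1 and 4. When each array was shifted by its urothelium marker mean, a setting that puts the median gene at -1.01, PSCA ranged from -2.07 to 1.16 in iUC, against -1.80, -1.47, -2.92 and -2.62 in normal bladder replicates 1 to 4. NECTIN4 then ranged from -1.27 to 0.92 in iUC, against -1.64, -1.62, -1.83 and -0.93 in normal bladder. Each had 17 of 18 tumours above every normal sample in this setting, against 16 for PSCA and 17 for NECTIN4 without the shift. The exceptions were then iUC replicate 7 for PSCA and replicate 10 for NECTIN4, so replicate 4 lay above every normal sample for both. A share over all genes was not counted in this setting. EPCAM ranged from -0.95 to 0.70 in iUC, against -0.66, -0.03, -0.47 and -1.39 in normal bladder, with 10 of 18 above.

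In that setting PSCA (log2 fold change 2.33, adjusted p = 3.23e-05), NECTIN4 (1.47, adjusted p = 0.000828) and PROM1 (1.53, adjusted p = 0.00842) stayed called, and EPCAM (0.57, adjusted p = 0.137) did not. The shift moves all genes alike, and 57 of 15115 genes were then called higher and 7708 lower. CD44 was one of the many called lower, at -1.96 (adjusted p = 0.00203). CD276 had -0.64 (adjusted p = 0.14), above the median gene at -1.01, with 0 tumours above every normal sample.

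**Figure D4:**
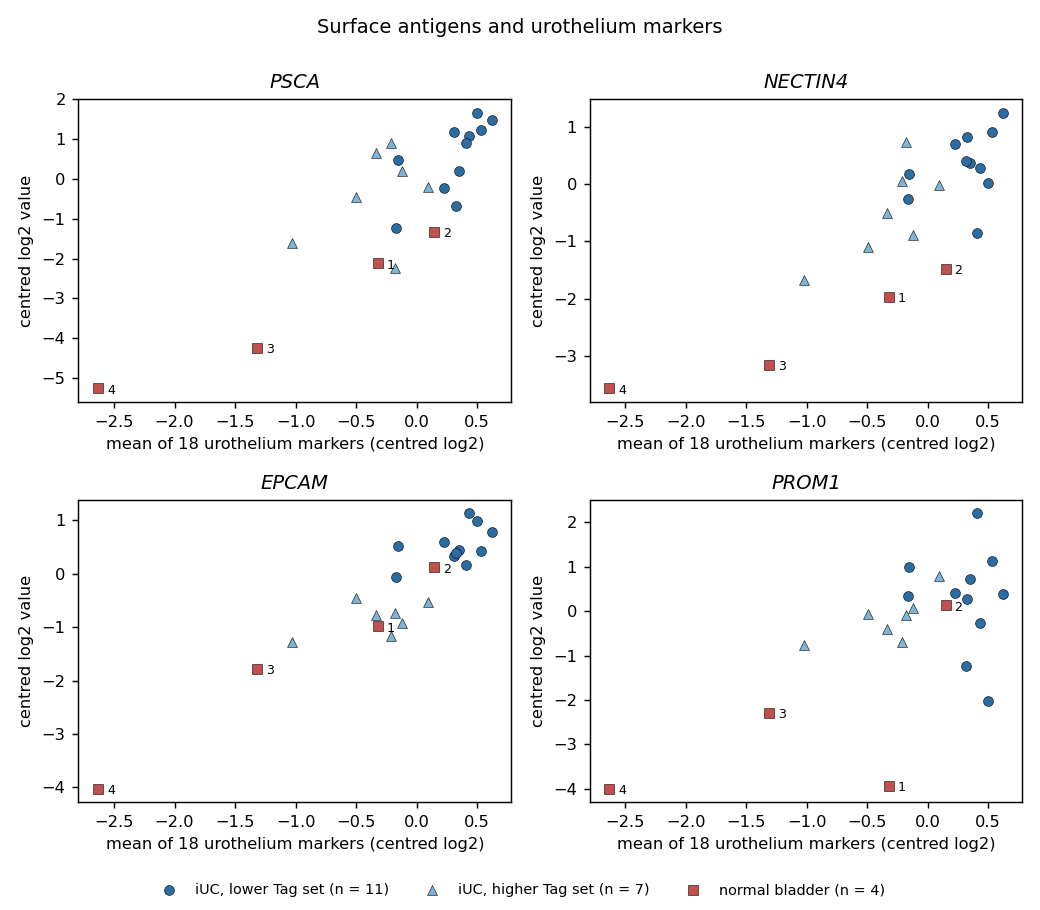
Centred log2 value of PSCA, NECTIN4, EPCAM and PROM1 (y axis) against the mean of 18 urothelium marker genes on the same array (x axis). CD276 and CD44 are not drawn. Colours of iUC mark the Tag set, and normal bladder samples carry their replicate number. Relative to the markers, 17 of 18 tumours exceeded every normal sample for PSCA and for NECTIN4, while for EPCAM normal replicates 1 to 3 lay within the range of the tumours (-0.95 to 0.70).

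Members were next compared in pairs within iUC. Subtracting Tag set means removes variation shared through the sets, and 18 tumours cannot show that members vary independently. Over the 18 tumours, after the mean of each Tag set was subtracted, Pearson's r of the 15 pairs of members lay between -0.576 and 0.346, and in 0 pairs did it pass 0.05 after Benjamini-Hochberg adjustment over the 15 (permutation test within sets, two-sided). The 1 pair with an unadjusted p of 0.05 or below was NECTIN4 and CD44 (r = -0.576, permutation p = 0.00855, adjusted p = 0.128, and Spearman's rho = -0.540, permutation p = 0.0161). Without the 2 tumours farthest from the median NECTIN4 value r was -0.558, and within the low Tag set it was -0.595.

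The genes whose pattern over the tumours was most like each member were read by the same r, as a description. For PSCA they were ILDR1 (r = 0.757) and DGAT1 (0.754). For NECTIN4 they were EML1 (0.859) and OCIAD1 (0.853), for CD276 KLHL40 (0.860) and ABCB8 (0.818), for CD44 MOB2 (0.903) and PROCR (0.890), and for PROM1 SERINC2 (0.744) and ANKRD13A (0.738). For EPCAM they were PIGF (0.808) and RHOQ (0.780), and both lie near EPCAM on its chromosome, with 7 and 8 annotated genes between. DGAT1 shares a chromosome with PSCA (61 genes between) and MOB2 with CD44 (333 between).

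After the place of PIGF and RHOQ was seen, the 20 measured genes on each side of every member were examined by gene order. Of these 40 neighbours, NECTIN4 had 12 among the 1% of genes most like it, a number reached by 1.33% of the 13391 genes with 40 neighbours, and EPCAM had 9, reached by 3.15%. CD276 and CD44 had 2 each, reached by 32%, and PSCA and PROM1 had 0. The median gene had 1. The neighbours of NECTIN4 included F11R, a tight junction adhesion molecule (r = 0.852), COPA, a coat protein of Golgi vesicles (0.849), NIT1 (0.837), TSTD1 (0.816) and PEX19, a peroxisome import factor (0.806). Of the 12, 4 were called higher in iUC: F11R (log2 fold change 3.33, adjusted p = 6.67e-05), NCSTN, a subunit of gamma-secretase (1.39), TSTD1 (1.18) and COPA (1.14).

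Neighbours of NECTIN4 also ran against it. Of its 40 neighbours 15 had r above 0.5 and 8 had r below -0.5, while 4.04% and 8.09% of all genes did. The 8 were SLAMF1 (-0.737), CASQ1 (-0.666), SLAMF7 (-0.656), LY9 (-0.627), ARHGAP30 (-0.588), KCNJ10 (-0.552), FCRLA (-0.517) and CFAP126 (-0.504). SLAMF1, SLAMF7 and LY9 are leukocyte receptor genes. Other leukocyte receptor genes among the 40 neighbours were not in the 8: CD48 (-0.376), CD244 (-0.036) and CD84 (0.052). For EPCAM the 9 close neighbours also included CRIPT (0.717), FBXO11 (0.662) and the mismatch repair gene MSH6 (0.650), and their log2 fold changes between iUC and normal bladder lay between -1.09 and 0.37. By limma 0 of these 9 were called, with 3 at an unadjusted p under 0.05 and 0 called by the methods' t-test.

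**Figure D5:**
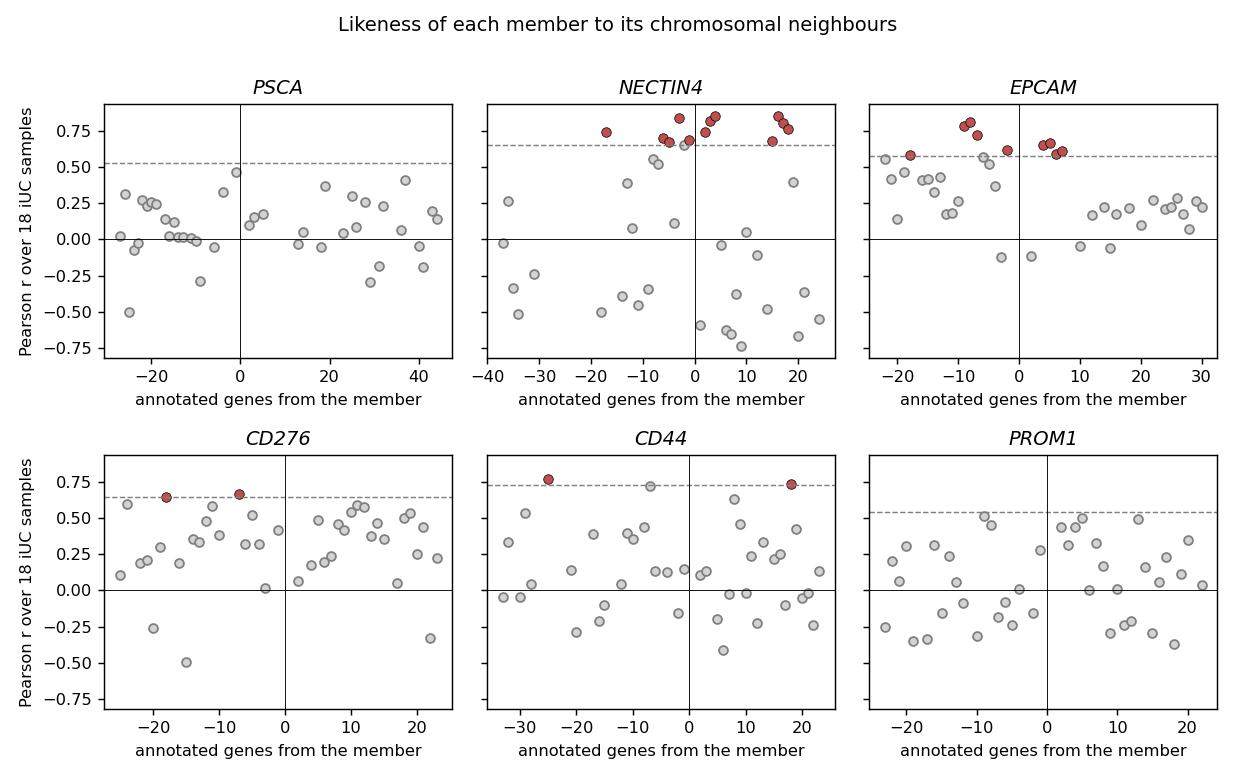
Pearson's r over the 18 iUC samples, Tag set means subtracted, between each member and its neighbouring genes (y axis) by their place in the gene order from the member (x axis). The dashed line bounds the 1% of all genes most like the member, above which lie 12 neighbours of NECTIN4 and 9 of EPCAM.

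Families and partners of the antigens gave the setting of these changes. Over the 9 lists, which hold 129 measured genes, 18 were called higher and 10 lower in iUC, against 3.68% and 8.64% of all genes. Of 34 other surface proteins that are therapy targets, 9 were called higher and 25 were not called, at a median log2 fold change of 0.33. MUC1, a transmembrane mucin, had the largest rise at 3.39 (SE 0.42, adjusted p = 3.46e-06), with all 18 tumours above every normal sample, as in 3.22% of all genes. The growth factor receptor ERBB3 had 2.65 (SE 0.45, adjusted p = 0.000135), and the tight junction protein CLDN4 had 2.40 (SE 0.61, adjusted p = 0.0049).

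The lists of relatives of PSCA and of NECTIN4 each held 1 gene called higher and 1 called lower. Over all genes 3.68% were called higher and 8.64% lower, and counts this small cannot be told apart from those shares. In the LY6 family of PSCA, LYPD2 rose by 4.29 (SE 0.67, adjusted p = 6.23e-05) and the complement inhibitor CD59 fell by 2.43 (SE 0.37, adjusted p = 4.37e-05), while 8 of 10 genes were not called. Among the 11 nectins and their partners, NECTIN2 rose by 1.82 (SE 0.38, adjusted p = 0.000954), NECTIN3 fell by 2.07 (SE 0.44, adjusted p = 0.00129) and 9 were not called. Of 11 partners of EPCAM, 4 were called higher. They were the protease inhibitor SPINT1 (2.40, SE 0.41), the claudins CLDN3 (2.18, SE 0.49) and CLDN7 (1.64, SE 0.56), and the membrane protease ST14 (1.62, SE 0.28).

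Of 12 relatives of CD276 and their receptors, VTCN1, another inhibitory ligand of T cells, rose by 1.04 (SE 0.19, adjusted p = 0.000289), and the costimulatory ligands CD86 and CD80 fell by 1.34 and 1.00. Of 19 hyaluronan genes and CD44 partners, 4 were called lower and 15 were not called, at a median of -0.46. The 4 were the lymphatic hyaluronan receptor LYVE1 (-2.86, SE 0.30), the cytoskeletal linker RDX (-2.68, SE 0.37), the proteoglycan VCAN (-1.73, SE 0.46) and the scavenger receptor STAB1 (-1.26, SE 0.21). In smooth muscle, whose markers moved with the groups, 17 of 22 genes were called lower, and of 22 fibroblast and matrix genes 16 were, with a mean between -0.68 and 0.87 in iUC and between 0.71 and 2.15 in normal bladder. Their part in the falls of the hyaluronan list was not tested.

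Lists for the antigens with no member probe set and for progenitor markers held 0 or 1 call in each direction. Over all genes 3.68% were called higher and 8.64% lower, and lists this small cannot be told apart from those shares. Among 13 folate genes only SHMT1, an enzyme of folate-dependent serine and glycine exchange, was called (1.21, SE 0.37, adjusted p = 0.0151). Of 5 partners of CD24, the kinase FYN was called lower (-1.40, SE 0.39, adjusted p = 0.00944). Of 15 progenitor markers, the retinal dehydrogenase ALDH1A1 was called higher (1.32, SE 0.46, adjusted p = 0.0315) and THY1, which is also on the fibroblast list, was called lower (-1.02, SE 0.36, adjusted p = 0.0322).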

How the data were processed

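Per the labels, biotinylated RNA from 5 µg of total RNA was hybridised to Affymetrix Canine 2.0 arrays, 18 of iUC and 4 of normal bladder. The authors deposited log2 values from GeneSpring GX 12.6.1 for 43035 probe sets, each centred on its median over the 22 arrays. The sources used here do not give how probes were summarised or how arrays were scaled. Centring removes the level, so no filter on dim probe sets was possible, and no depth applies to arrays: their number limits the precision. Array medians lay between -0.03 and 0.06.

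Leaving out 111 control probe sets kept 42924, of which 29254 had 1 gene symbol in the platform annotation, 439 several and 13231 none. Entrez identifiers of 27680 matched a RefSeq gene table of the UU_Cfam_GSD_1.0 dog assembly, used for names and gene order only. Probe sets with the same single symbol were averaged into 15115 genes. The tests on genes and on probe sets used limma 3.58.1 (R 4.3.3; lmFit and eBayes without covariates, Benjamini-Hochberg over all features). A call needed at least a 2-fold change with an adjusted p no higher than 0.05, the criterion of the study's methods. The labels call the samples biological replicates. The fit was tested on simulated data. Correlations over the 18 tumours used values minus the mean of each Tag set and 100000 permutations within sets. Named genes were all members, up to 3 called genes of each list per direction by size of change (ST14 and STAB1, outside this rule, were named after their values were seen), and the 2 genes most like each member. The neighbours of members were examined after those genes were seen. Members, lists and tests were chosen with earlier results of these data known. Alternatives covered scaling, array weights, the methods' t-test, samples left out, Tag sets, blocks, the choice of probe set and values relative to the urothelium markers, the last (like all settings for the neighbours) chosen after seeing the data.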

Additional observations from a re-analysis of the deposited data

Results flagged for a closer look

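CD44 in normal bladder replicate 1 stood apart from the other normal samples. Its gene value of 2.47 lay above 0.74 to 0.90 in replicates 2 to 4, and the gap made up 0.908 of the range of the 4 samples. On the probe set CfaAffx.11235.1.S1_s_at the gap made up 0.883 of the range (2.68, against 0.60 to 0.84). Both are above Dixon's 95% critical value for 4 samples, which chance passes in about 1 of 20 groups. Normal replicate 1 also had the highest leukocyte marker mean of all 22 samples (1.02), and the part of leukocytes in its CD44 value was not tested.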

How the results depend on the processing

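Over 18 alternatives the log2 fold change lay between 2.31 and 4.65 for PSCA, 1.47 and 3.24 for NECTIN4, 0.57 and 2.46 for EPCAM, 1.53 and 4.04 for PROM1, and -2.11 and -0.44 for CD44. Of the 6 member genes, 4 were called higher with all samples. The replicate numbers pair no samples (correlations of same-numbered deviations -0.166, 0.055, -0.053 and 0.131). The replicate block used only iUC replicates 1 to 4 beside the 4 normal samples, and left 215 of 15115 genes called higher and 349 lower. Within it 2 member genes were called higher (PSCA and NECTIN4, with EPCAM at 1.65 and PROM1 at 1.78 not called). Member probe sets were then 2 higher in place of 6 and 0 lower in place of 1. List genes were 7 higher and 3 lower in place of 18 and 10. With the description code as a block 1 member gene (PROM1), 0 member probe sets and 0 list genes were called higher, and 0 member probe sets lower. That block also left 15 of 15115 genes called higher in place of 556 and 389 lower in place of 1306.

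CD44 made the count of member genes called lower 1 in place of 0 relative to the urothelium markers (-1.96, where 7708 of 15115 genes were called lower, against 1306). It did so too with the high Tag set alone (-1.17, adjusted p = 0.0259, where 2623 genes were called lower). The probe set of largest variance gave the same count (-1.71, adjusted p = 0.0329, where 2044 genes were called lower). Member probe sets called higher numbered 3 relative to the urothelium markers, with normal replicates 3 and 4 as 1 sample and with the high Tag set alone, and 3 to 6 with 1 normal replicate left out (3 without replicate 4). Member probe sets called lower numbered 3 relative to the urothelium markers and 0 after quantile normalization, with any normal replicate left out, with replicates 3 and 4 as 1 sample, with the low Tag set alone and with the Tag mean as covariate. List genes called higher numbered 11 to 19 with 1 normal replicate left out (11 without replicate 4). List genes called lower numbered 3 after quantile normalization, 16 with array weights and 20 with the high Tag set alone. Over all genes 431, 1344 and 2623 were called lower in those settings. The median share of tumours above every normal sample was 69.4% over the 6 genes and 42.9% with the high Tag set alone. CD276 and its probe set had -0.64 relative to the urothelium markers, a shift of all genes alike that puts the median gene at -1.01. Cfa.3800.1.S1_s_at of CD44 turned to 0.077 with scaling to the 75th percentile, 0.24 with array weights and 0.031 with the low Tag set alone, and with 1 normal replicate left out it lay between -0.24 and 0.37 (without replicate 1). Scaling to the 75th percentile put the median gene at 0.20 and calls at 807 higher and 1080 lower, against 556 and 1306, and the Tag mean as covariate gave 1075 and 775. Quantile normalization gave 295 and 431, and leaving out normal replicate 4 gave 298 and 967. The share of close neighbours of NECTIN4 was 30% and fell to 18.75% with 40 genes on each side and 17.5% in the low Tag set, and that of EPCAM was 22.5%, and 40% with 10 genes on each side. The causes of these shifts were not tested. The 4 normal samples limit every comparison.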
